A study of Mus musculus with 12 samples.

Results

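The genes described here are the enzymes with which mouse tissues oxidise and conjugate foreign chemicals, together with the sensors that control them. They were the genes of the deposited tables named as cytochromes P450 of families Cyp1 to Cyp4, glutathione transferases (Gst) and UDP-glucuronosyltransferases (Ugt), plus Ahr, Ahrr, Nqo1, Nr1i3, Ephx1, Por and Sult1e1, with a raw count of at least 10 in at least 2 libraries of 1 generation. That rule kept 70 of 94 matching names, among 28075 genes in either table: 36 P450 genes (3 Cyp1, 17 Cyp2, 2 Cyp3 and 14 Cyp4), 20 Gst genes, 7 Ugt genes and 7 sensors and other enzymes. The count that decided membership, the second-highest of a table, was 10 for Cyp2a12 just inside the limit, and 9 for Ugt2b1 and 8 for Cyp3a13 just outside it. Nr1i2, the receptor PXR, was also on the list and is not analysed here.

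P450 enzymes insert oxygen into lipophilic compounds, with electrons handed on by the reductase POR, and the products are then joined to glutathione by the Gst enzymes, to glucuronic acid by the Ugt enzymes or to sulfate by sulfotransferases. The aryl hydrocarbon receptor (AHR) switches on Cyp1 genes, the nuclear receptor CAR (Nr1i3) switches on Cyp2b genes, and the factor NRF2 switches on many Gst genes and Nqo1. Most of this system is known from liver, but epithelia of the male tract also carry much glutathione transferase.

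Messenger RNA was sequenced from mouse prostate, in F1 males born to females given the organochlorine insecticide chlordecone (kepone) at 100 µg/kg/day in mid-pregnancy (E6.5 to E15.5), and in F3 males bred on from that F1 generation. The groups were F1 chlordecone (3 libraries), F1 control (2 libraries analysed of 3 in the labels), F3 chlordecone (3) and F3 control (3). The F1 counts had no column for the labelled F1 control 3. The labels give no strain, age, vehicle or control dosing, and do not say which animals were littermates or whether a library was 1 animal, so p-values measure only the spread between these libraries.

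Total counts were 17228539 to 28061760 in the F1 libraries and 71672418 to 114762135 in the F3 libraries. The 8 prostate markers summed to 52200 to 89200 CPM (read counts scaled to a common library size with TMM factors) in F1 chlordecone libraries, 85900 and 102000 CPM in F1 controls, 87800 to 97100 CPM in F3 chlordecone and 92800 to 106000 CPM in F3 controls. Pbsn and Tgm4 made up most of that, while Sbp did not exceed 0.703 CPM in any library and Spinkl was at or near 0 in F3. All 7 markers tested in F1 had a negative log2 fold change, with a median of -0.77, and for 4 of them all chlordecone libraries were below both controls. The F1 libraries also carried transcripts listed as markers of neighbouring glands, and the tissue they came from was not tested. The 8 secretory genes of the seminal vesicle summed to 187000, 431000 and 529000 CPM in F1 chlordecone 1, 2 and 3, against 119000 and 121000 CPM in the F1 controls, while no F3 library was above 71.1 CPM. Svs2, Svs4, Svs5 and Pate4 carried that sum, and the list did not move as one. Svs2, for example, had 34700, 23800 and 200000 CPM in chlordecone libraries, against 3930 and 3200 CPM in the controls, whereas Svs6 had 1860, 10400 and 93 CPM, against 5140 and 5370 CPM. The median log2 ratio to the controls over the list was -0.62, 1.34 and -2.68 in chlordecone 1, 2 and 3. Genes of vas deferens and epididymis (6 of 7 listed were in the F1 table) summed to 44300, 105 and 13900 CPM in F1 chlordecone 1, 2 and 3, against 25.2 and 25.4 CPM in the F1 controls. Nearly all of that was Akr1b7 and Crisp1, and the other 4 genes did not exceed 1.64 CPM in any F1 library. In these genes F1 chlordecone 2 thus stood apart from the other chlordecone libraries, while in Svs2 and Svs6 chlordecone 3 was at an extreme. Over all genes each of the 3 libraries differed from the others. The chi-square per gene was 422 between chlordecone 1 and 2, 327 between 1 and 3 and 599 between 2 and 3. F1 results are given with and without chlordecone 2 where they rest on it.

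No member passed an adjusted p of 0.05 within F1 or within F3, while for Gstm5 and Gsta3, both glutathione transferases, the chlordecone difference in F1 exceeded that in F3 past this threshold. Generation cannot be told apart there from the separate tables, the depth or the seminal vesicle transcripts of the libraries. In F1, edgeR's quasi-likelihood test called 0 of the 61 members that passed its filter on low counts, against 0.0281% of the 17804 genes tested. At an unadjusted p under 0.05 there were 18 members higher and 2 lower in chlordecone libraries, which is 29.5% and 3.28%, against 7.93% and 3.6% of all genes tested. DESeq2 called 13 members, all higher, where 3.05% of all genes were called higher. In edgeR 1 member was called with no filter (0.11% of all genes), 12 in 1 fit of both generations (5.48%) and 10 with the replicate number as a block (1.81%). In that block fit chlordecone 3, which had no control of its number, did not enter the F1 difference. In F3 the same test called 0 of 49 members, against 0.0596% of 16766 genes, with 5 higher and 6 lower at an unadjusted p under 0.05 (10.2% and 12.2%, against 4.97% and 5.64%). DESeq2 called 1 F3 member higher and 3 lower, where 0.732% and 0.874% of the genes with an adjusted p were, and with no filter edgeR called 1 (0.146% of all genes). The median log2 fold change, chlordecone over control, was 0.49 over the F1 members and -0.08 over the F3 members, beside 0.02 and -0.01 over all genes tested. These medians describe the members that passed the filter, and 3 F1 members with no read in either control enter the F1 median at fitted values. The F1 median was also 0.49 with those 3 at their lower bound.

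Most glutathione transferases had the higher mean in F1 chlordecone libraries. Of 19 tested, 16 had a positive and 3 a negative log2 fold change (84.2% positive, against 51.4% of all genes tested), with a median of 2.04. All chlordecone libraries were above both controls for 9 of them, which is 47.4%, against 16.2% of all genes tested. Those controls were the most alike pair of libraries, as given above. The summed Gst level was 880, 275 and 740 CPM in F1 chlordecone 1, 2 and 3, against 181 and 194 CPM in the controls. The groups did not overlap in this sum, and chlordecone 2 lay much nearer to the controls than the other chlordecone libraries did. Within the family, chlordecone 1 and 3 were both above the other 3 libraries for 14 of 19 genes (73.7%, against 24.5% of all genes tested).

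**Figure D1:**
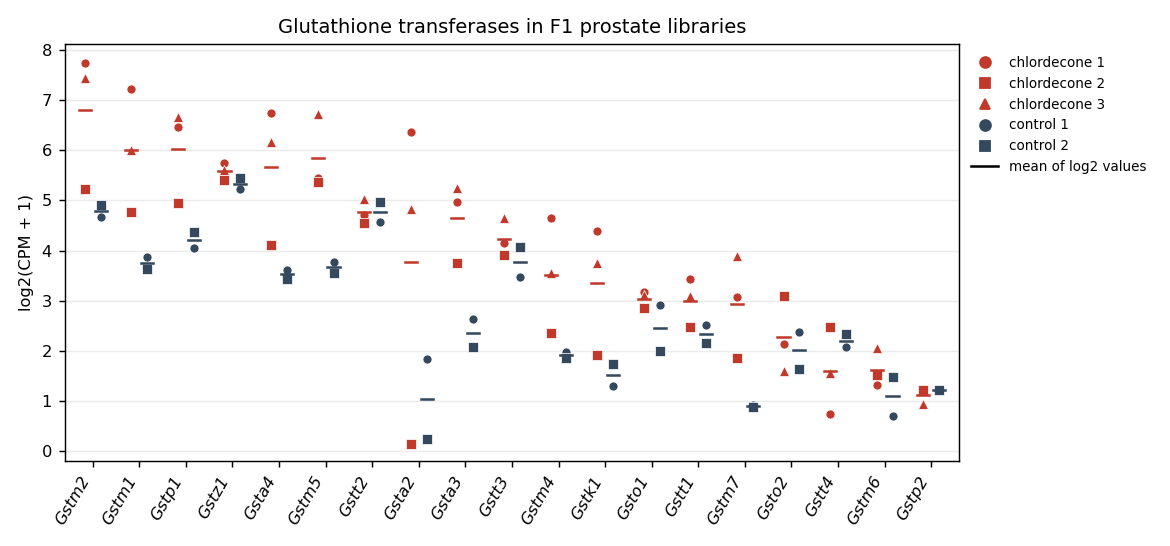
Levels of the glutathione transferases in each F1 library, as log2(CPM + 1), with chlordecone libraries in red left of control libraries in dark blue and a bar at the mean of the log2 values. For Gstm2, Gstm1, Gsta4 and Gstp1 the chlordecone 1 and 3 points lie far above the controls and chlordecone 2 lies between, while Gstz1 and Gstt2 sit at like levels in both groups.

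Promoters of the genes called between generations are shown with that of Cyp1a1, the textbook target of AHR. AHR and NRF2, named above, act through short motifs, which may lie in such windows or outside them. The windows are from RefSeq on GRCm38.p6, read 5′ to 3′ on the gene's strand and ending at the annotated start, except that of Gstm5, which stops before its earliest annotated exon. Capitals mark matches on either strand to GCGTG, the core of the dioxin response element (CACGC where it lies on the opposite strand), and to TGACNNNGC, the core of the antioxidant response element.
Gsta3 (chr1:21240335-21240584, + strand): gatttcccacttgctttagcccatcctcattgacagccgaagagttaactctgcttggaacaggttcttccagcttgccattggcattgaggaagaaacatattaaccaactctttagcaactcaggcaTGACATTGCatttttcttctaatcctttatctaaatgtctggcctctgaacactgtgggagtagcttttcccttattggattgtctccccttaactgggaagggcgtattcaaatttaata
Gstm5 (chr3:107895604-107895820, + strand): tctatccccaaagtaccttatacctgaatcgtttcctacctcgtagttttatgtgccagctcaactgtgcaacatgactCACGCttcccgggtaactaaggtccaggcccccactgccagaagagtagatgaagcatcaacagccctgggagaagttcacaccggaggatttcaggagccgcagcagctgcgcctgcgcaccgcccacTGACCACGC
Cyp1a1 (chr9:57697363-57697612, + strand): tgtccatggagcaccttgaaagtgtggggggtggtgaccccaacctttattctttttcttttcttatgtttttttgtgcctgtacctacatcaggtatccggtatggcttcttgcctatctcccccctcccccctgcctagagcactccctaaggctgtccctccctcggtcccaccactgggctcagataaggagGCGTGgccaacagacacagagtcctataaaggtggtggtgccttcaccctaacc

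The Gsta3 window held TGACNNNGC at 121 to 113 bases before the start, and the Cyp1a1 window held GCGTG at 54 to 50 bases before it. For Gstm5 distances were counted from the RefSeq start, which directly follows base 107895853 and lies beyond the end of the printed window. There the opposite-strand GCGTG lay at 171 to 167 and at 38 to 34 bases. The latter was inside a TGACNNNGC match at 42 to 34 bases, which ends the printed window. RefSeq promoters were found for 58 of the 70 members (67 windows of 250 bases). GCGTG was in 16 of the 67 (23.9%), against 28.2% of 32851 promoters of all genes, and TGACNNNGC in 4 (5.97%), against 10.2%. Among 26 Gst windows, 5 held the first motif and 3 the second. A match describes these letters in this window, and binding was not tested.

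Gstm5 (ENSMUSG00000004032), a mu-class transferase on chromosome 3 (107895821 to 107898686, + strand, GRCm38), had 42.7, 40.3 and 104 CPM in F1 chlordecone 1, 2 and 3, against 12.7 and 10.8 CPM in the controls. All chlordecone libraries were above both controls, and chlordecone 2 was level with chlordecone 1. The mean was 62.5 ± 36.4 CPM in chlordecone (SD, n = 3) and 11.8 ± 1.38 CPM in control libraries (SD, n = 2), and the log2 fold change of 2.41 (SE 0.48) had an edgeR adjusted p of 0.1695. The gene 4933431E20Rik overlaps Gstm5 on the other strand, and without a stated strand setting for the authors' counting, reads of the pair cannot be told apart.

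Gsta3 (ENSMUSG00000025934), an alpha-class transferase that in several species also works in steroid synthesis, lies on chromosome 1 (21240589 to 21265661, + strand). It had 30.1, 12.5 and 37.1 CPM in F1 chlordecone 1, 2 and 3, against 5.19 and 3.19 CPM in the controls. The groups did not overlap, with chlordecone 2 lowest of its group. Its log2 fold change was 2.67 (SE 0.52), with an adjusted p of 0.1695 by edgeR. The gene Gm28836 overlaps Gsta3 on the other strand, so reads of that pair cannot be told apart either.

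The other mu-class genes lie beside Gstm5 on chromosome 3. Gstm2, the most abundant member per length, had 213, 36.7 and 172 CPM in F1 chlordecone 1, 2 and 3, against 24.6 and 28.9 CPM in the controls. Gstm1 had 149, 26.1 and 63.1 CPM in chlordecone libraries, against 13.6 and 11.4 CPM in the controls. In both genes chlordecone 2 was the lowest chlordecone library and still above both controls. Gstm1 shares 18.9% of its 50-base words with other genes, among them a Gstm2 pseudogene, so its count is uncertain to that extent. Gstm7 had 7.36, 2.62 and 13.9 CPM in chlordecone libraries, against 0.891 and 0.844 CPM in the controls. The log2 fold changes were 2.39 (SE 0.67) for Gstm2, 2.66 (SE 0.68) for Gstm1 and 3.19 (SE 0.79) for Gstm7, and the groups did not overlap in any of the 3.

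Gsta4, which conjugates the lipid peroxidation product hydroxynonenal, had 106, 16.3 and 70.4 CPM in F1 chlordecone 1, 2 and 3, against 11.3 and 9.79 CPM in the controls. Its log2 fold change was 2.61 (SE 0.70). Gstp1, the pi-class enzyme long studied in prostate, was named after its values were seen and had 86.9, 30 and 101 CPM in chlordecone libraries, against 15.6 and 19.7 CPM in the controls. The deposited name Gstp1 shares 33.7% of its words with Gstp2 and a pseudogene. Gsta2 was chosen likewise, for its split within the chlordecone group: 81.1, 0.109 and 27.5 CPM in chlordecone 1, 2 and 3, against 2.57 and 0.187 CPM in the controls. Here chlordecone 2 lay below both controls, and Gsta2 shares 49.8% of its words with its relatives.

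In the theta, omega and zeta classes the F1 groups overlapped for all 7 tested genes. Most genes overlapped too, since 16.2% of all genes tested were apart with chlordecone higher and 15.1% with chlordecone lower. Gstt1, named after its values were seen, had 9.86, 4.53 and 7.5 CPM in chlordecone libraries, against 4.72 and 3.47 CPM in the controls, with a log2 fold change of 0.84, and that of Gstt3, also named afterwards, was 0.49. Gstt2 had 25.3, 22.4 and 31.6 CPM in chlordecone libraries, against 22.7 and 30.4 CPM in the controls, with a log2 fold change of -0.01 (SE 0.28). Gsto1, a thioltransferase of the omega class, had 8, 6.22 and 7.6 CPM in chlordecone libraries, against 6.5 and 3 CPM in the controls. Gsto2, its neighbour on chromosome 19, had 3.37, 7.52 and 2.03 CPM, against 4.19 and 2.11 CPM in the controls. Gsto1 had a log2 fold change of 0.62. Gstt4 was the member with the most negative Gst log2 fold change, -0.61 (SE 0.82), at 0.673, 4.53 and 1.93 CPM in chlordecone libraries, against 3.2 and 4.03 CPM in the controls.

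Leaving out F1 chlordecone 2 moved the F1 calls from 0 to 19 members, 18 higher and 1 lower, with 15% of all genes called. The 18 higher members comprised 10 Gst genes (Gsta2, Gsta3, Gsta4, Gstk1, Gstm1, Gstm2, Gstm4, Gstm5, Gstm7 and Gstp1), 7 P450 genes and Ephx1, and the lower one was Cyp4f37. With chlordecone 2 as the only chlordecone library, 3 members were called, Cyp4a12a, Cyp2e1 and Gstm5, with 6.57% of all genes called. That fit has no replication among chlordecone libraries, and the lone library is assumed to vary like the 2 controls. Chlordecone 1 and 3 are also the libraries with the most Akr1b7 and Crisp1. The urothelial markers summed to 79.5, 15.9 and 78.0 CPM in chlordecone 1, 2 and 3, against 29.6 and 21.1 CPM in the controls. The smooth muscle markers summed to 11700, 4640 and 7400 CPM in the same libraries, against 4040 and 3960 CPM. The part of these other tissues in the Gst difference was not tested, and in bulk tissue more cells of a type and more RNA per cell cannot be told apart.

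**Figure D2:**
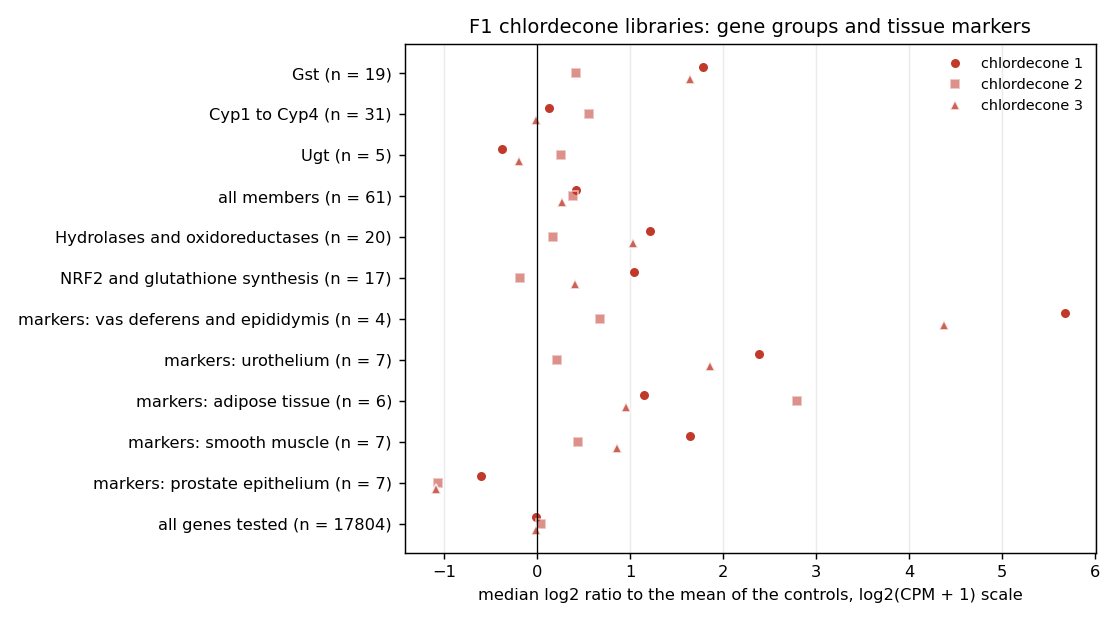
For each F1 chlordecone library, the median over the genes of a group of the log2 ratio to the mean of the 2 control libraries, on the log2(CPM + 1) scale, with the number of genes in brackets. The Gst median was 1.78, 0.42 and 1.64 in chlordecone 1, 2 and 3. The medians of the vas deferens and epididymis markers and of the urothelial markers were also highest in chlordecone 1 and 3.

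Most P450 genes had the higher mean in F1 chlordecone libraries. Of 31 tested, 21 had a positive and 10 a negative log2 fold change (67.7% positive, against 51.4% of all genes tested), with a median of 0.45. All chlordecone libraries were above both controls for 10 and below both for 4, which is 32.3% and 12.9%, against 16.2% and 15.1% of all genes tested. Some of these, such as Cyp4a12a, passed the filter on low counts through a single group only, so their separation is partly set by that filter. Cyp4a12a, a fatty acid hydroxylase best known from male mouse kidney and liver, had 12.4, 9 and 37.3 CPM in F1 chlordecone 1, 2 and 3, and no read in either control. These levels rest on 312, 165 and 810 reads, so the level was at least 131-fold higher in chlordecone libraries, against a floor of 3 counts per control library. The edgeR adjusted p was 0.0687. Cyp4a12a shares 48.9% of its words with Cyp4a12b, which had too few reads to be a member, and it has no row in the F3 table.

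Cyp2e1, which oxidises ethanol and small solvents and is also abundant in fat, had 7.88, 32.0 and 4.14 CPM in F1 chlordecone 1, 2 and 3, against 0.681 and 0.937 CPM in the controls. Its highest value was in chlordecone 2, which is the lowest chlordecone library for Gstm1, Gstm2, Gsta3 and Gsta4. Its log2 fold change was 4.17 (SE 0.96; edgeR adjusted p 0.2013). The adipose markers, 6 of 7 measured with the defining marker Lep absent, summed to 86.0, 292 and 69.0 CPM in chlordecone 1, 2 and 3, against 21.8 and 28.7 CPM in the controls. Their part in the Cyp2e1 level was not tested.

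Cyp2j13, of the arachidonic acid epoxygenase subfamily, had 5.74, 4.36 and 20.2 CPM in F1 chlordecone libraries, against 0.262 and 0.797 CPM in the controls. The log2 fold change was 4.23 (SE 0.93; edgeR adjusted p 0.1951), and in F3 no library of either group was above 0.0629 CPM. Cyp2j6, the most abundant P450 member by CPM in F1, had 35.2, 12.5 and 51.2 CPM in chlordecone libraries, against 19.6 and 23.6 CPM in the controls. There the groups overlapped, since chlordecone 2 was below both controls.

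Cyp1a1, named after its values were seen, had 2.53, 1.96 and 4.60 CPM in F1 chlordecone libraries, against 0.314 and 0.0937 CPM in the controls, which are 64, 36 and 100 reads against 6 and 2. The groups did not overlap, and the log2 fold change of 3.87 (SE 1.02) had an edgeR adjusted p of 0.2322. Cyp1b1, another AHR target and the main Cyp1 transcript here, had 21, 13.7 and 14.1 CPM in chlordecone libraries, against 13.7 and 16.4 CPM in the controls. Cyp1a2, the other AHR target among the Cyp1 genes, had 0.436, 3.11 and 0.506 CPM, against 0.419 and 2.95 CPM in the controls, with a log2 fold change of -0.33. Of the 3 Cyp1 genes, the groups were apart for Cyp1a1 and overlapped for Cyp1a2 and Cyp1b1. Cyp2b10, the textbook CAR target, was also named afterwards and had 1.39, 0.164 and 1.29 CPM in chlordecone libraries and no read in the controls, which is at least 6.35-fold higher against the same floor. Only 3 reads were counted in chlordecone 2.

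Cyp2f2, which in mouse lung activates naphthalene in club cells, ran the other way. It had 0.238, 0.382 and 0.552 CPM in F1 chlordecone libraries, against 2.1 and 2.72 CPM in the controls, or 6, 7 and 12 reads against 40 and 58. All chlordecone libraries were below both controls, with a log2 fold change of -2.61 (SE 0.96; edgeR adjusted p 0.361). Cyp4f37, a fatty acid hydroxylase of the Cyp4f cluster on chromosome 17, had 1.46, 11.9 and 1.93 CPM in chlordecone libraries, against 10.3 and 7.83 CPM in the controls, so chlordecone 2 was above both controls and the other libraries were below. Cyp4f39, of the same cluster, had 2.89, 8.51 and 1.84 CPM, against 4.24 and 7.03 CPM in the controls. Cyp2j9 had 0.990, 1.53 and 1.43 CPM in chlordecone libraries, against 1.31 and 1.87 CPM in the controls. The pseudogene Cyp4f41-ps had 0.277, 0.763 and 0.783 CPM, against 1.05 and 2.67 CPM in the controls.

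The glucuronosyltransferases, which make many drugs and steroids water-soluble, were barely transcribed in F1. The 6 with a row summed to 1.35, 2.02 and 1.61 CPM in F1 chlordecone libraries, against 2.57 and 4.08 CPM in the controls. A positive log2 fold change was found for 1 of 5 tested (20%, against 51.4% of all genes tested). Ugt2a3 had 3, 0 and 0 reads in chlordecone libraries, against 17 and 16 in the controls. Ugt2b35 had 13, 0 and 16 reads, against 20 and 19 in the controls, and Ugt1a2 had 0, 12 and 0 reads, against 0 and 20. The groups did not overlap for Ugt2a3 and Ugt2b35, lower in chlordecone libraries, or for Ugt1a6a, which was named after its values were seen and had 11, 13 and 15 reads in chlordecone libraries, against 0 and 1 in the controls. That is 40% lower and 20% higher of the 5 tested, against 15.1% and 16.2% of all genes tested, on few reads. Each of these genes passed the filter on low counts through a single group only, so their separation is partly set by that filter. The smallest edgeR adjusted p of the 5 was 0.4479, for Ugt1a6a. The Ugt1a genes also share long 3′ parts with each other.

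In F1 the groups overlapped for all 6 tested sensors and partner enzymes. Of all genes tested, 16.2% were apart with chlordecone higher and 15.1% with chlordecone lower. Ahr had 14.6, 15 and 16.9 CPM in chlordecone libraries, against 16.7 and 13.4 CPM in the controls, with a log2 fold change of 0.04 (SE 0.28). Ahrr, the repressor that AHR itself induces, had 1, 13 and 6 reads in chlordecone libraries, against 14 and 7 in the controls. Por had 61.6, 29.4 and 41.7 CPM in chlordecone libraries, against 45.2 and 37.8 CPM. Nqo1, the quinone reductase under NRF2 and AHR control, had 10.7, 2.67 and 4 CPM in chlordecone libraries, against 4.82 and 4.64 CPM in the controls, and Sult1e1, the oestrogen sulfotransferase, had 12.3, 6.49 and 10.2 CPM, against 5.24 and 7.26 CPM. Ephx1, microsomal epoxide hydrolase, had 34.1, 9.98 and 38.9 CPM in chlordecone libraries, against 10.2 and 9.04 CPM in the controls, and its log2 fold change was 1.53 (SE 0.54; edgeR adjusted p 0.3449). Ephx1 and Sult1e1 were the 2 of the 6 tested genes of this kind in which chlordecone 1 and 3 were both above the other 3 libraries. That is 33.3%, near the 24.5% of all genes tested.

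**Figure D3:**
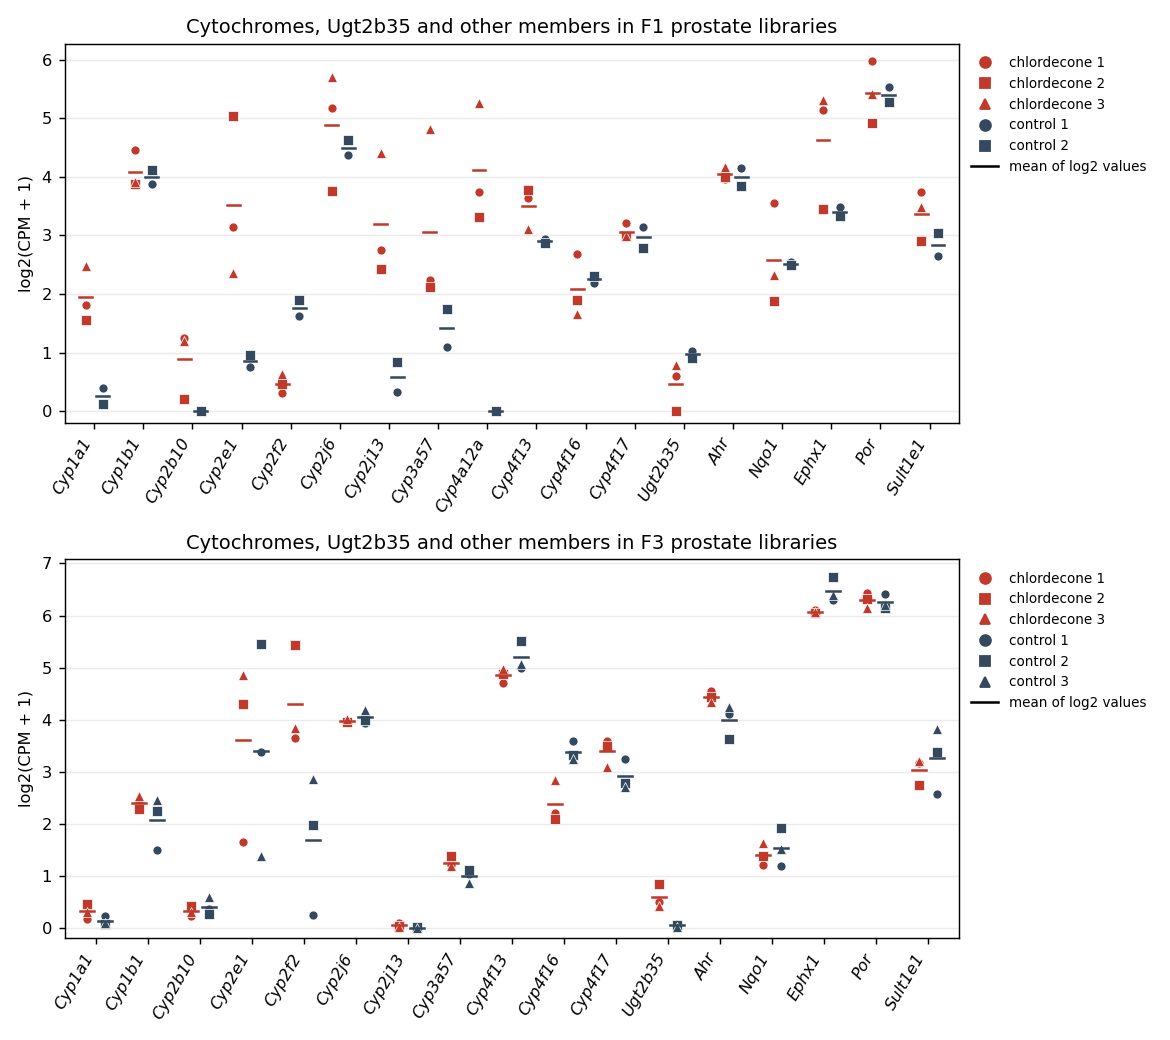
Levels of P450 genes, Ugt2b35 and other members in each F1 library (top) and F3 library (bottom), as log2(CPM + 1), chlordecone in red left of control in dark blue, with a bar at the mean of the log2 values. Cyp4a12a, Cyp2e1, Cyp2j13 and Cyp1a1 stand above the controls in all F1 chlordecone libraries, Cyp2f2 is below them in F1 and above them in F3, and Ugt2b35 is above the controls in F3.

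In F3 most glutathione transferases had the lower mean in chlordecone libraries. Of 19 tested, 5 had a positive and 14 a negative log2 fold change (26.3% positive, against 48.8% of all genes tested), with a median of -0.28, and all chlordecone libraries were below all controls for 4 (21.1%, against 8.25% of all genes tested) and above them for 0 (8.34% of all genes were). The summed Gst level was 635, 647 and 720 CPM in F3 chlordecone libraries, against 886, 856 and 674 CPM in the controls, so the groups overlapped through chlordecone 3 and control 3. The lower members called by DESeq2 were Gsto1, Gsta4 and Cyp4f16, and the higher one was Ugt2b35.

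Gsto1 had 16.2, 18.7 and 24.0 CPM in F3 chlordecone 1, 2 and 3, against 37.7, 29.7 and 33.6 CPM in the controls. The mean was 19.6 ± 3.97 CPM in chlordecone and 33.7 ± 4.01 CPM in control libraries (SD, n = 3 each), the groups did not overlap, and the log2 fold change of -0.78 (SE 0.17) had an edgeR adjusted p of 0.311. Gsto2 had 0.557, 0.604 and 1.09 CPM in chlordecone libraries, against 1.52, 1.2 and 1.39 CPM in the controls, and also did not overlap. Cfap43 overlaps both omega genes on the other strand.

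Gsta4 had 34.1, 39.5 and 41.3 CPM in F3 chlordecone libraries, against 51.6, 54.8 and 56.2 CPM in the controls. The spread within each group was small, and the log2 fold change was -0.50 (SE 0.12; edgeR adjusted p 0.3297). Gstt2 had 15.4, 17.4 and 21.3 CPM, against 27.1, 24.6 and 20.5 CPM in the controls, with chlordecone 3 just above control 3. The abundant mu-class genes overlapped. Gstm2 had 249, 239 and 269 CPM in chlordecone libraries, against 387, 352 and 237 CPM in the controls, and Gstm1 had 123, 123 and 138 CPM, against 151, 151 and 116 CPM.

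**Figure D4:**
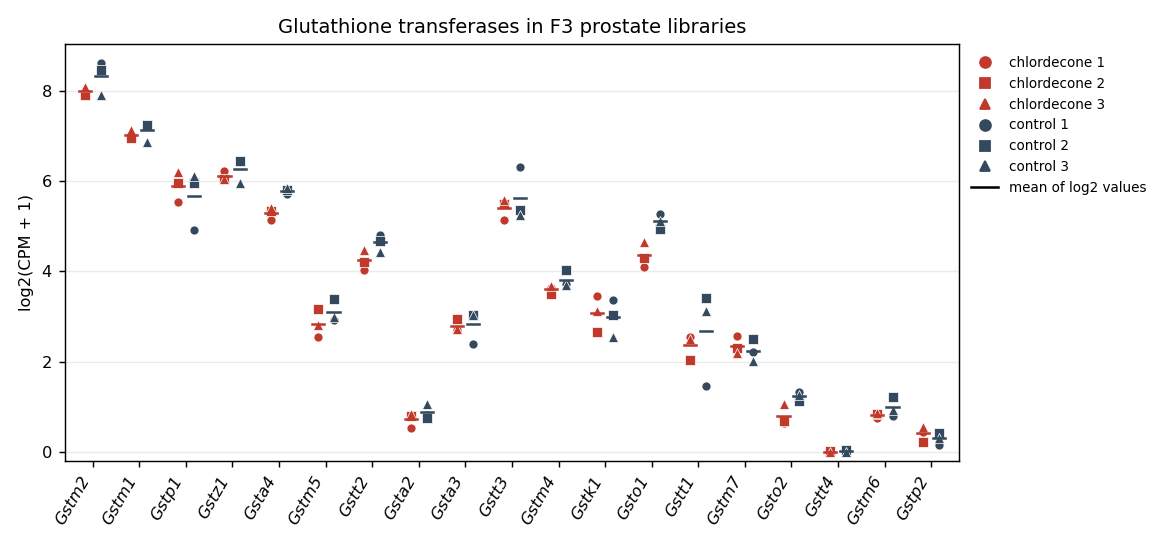
Levels of the glutathione transferases in each F3 library, as log2(CPM + 1), chlordecone in red left of control in dark blue, with a bar at the mean of the log2 values. Gsto1 and Gsta4 lie below all controls in the chlordecone libraries, and most other members overlap.

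Among the F3 P450 genes 10 of 19 tested had a positive and 9 a negative log2 fold change, with a median of 0.13. That is 52.6% positive, near the 48.8% of all genes tested. Cyp4f16, of the Cyp4f fatty acid hydroxylases, had 3.65, 3.24 and 6.17 CPM in chlordecone libraries, against 11.1, 9 and 8.43 CPM in the controls. Its groups did not overlap, and the log2 fold change was -1.12 (SE 0.27; edgeR adjusted p 0.3297). It shares 17.4% of its words with Cyp4f37 and Cyp4f17. Cyp4f17 was higher, at 11.1, 10.3 and 7.51 CPM in chlordecone libraries, against 8.54, 5.93 and 5.56 CPM, with overlap, and Cyp4f13, the most abundant F3 P450 member by CPM, had 25.1, 28.5 and 30.6 CPM, against 30.9, 44.7 and 32.8 CPM in the controls.

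Cyp2f2 had 11.5, 42.0 and 13.3 CPM in F3 chlordecone libraries, against 0.190, 2.93 and 6.30 CPM in the controls. Here all chlordecone libraries were above all controls, although the controls alone spanned a wide range. The log2 fold change was 2.82 (SE 0.97; edgeR adjusted p 0.4208). Cyp2e1 varied widely within both groups, with 2.15, 18.8 and 27.9 CPM in chlordecone libraries, against 9.39, 42.9 and 1.62 CPM in the controls. The adipose markers summed to 6.85, 71.5 and 80.9 CPM in chlordecone libraries, against 43.6, 234 and 10.3 CPM in the controls, so the libraries stood in the same order within each group, and the markers' part in the Cyp2e1 level was not tested. Cyp1b1 had 4.27, 3.88 and 4.79 CPM in chlordecone libraries, against 1.84, 3.72 and 4.52 CPM, and Cyp3a57 had 1.31, 1.6 and 1.27 CPM, against 1.05, 1.17 and 0.830 CPM. Cyp1a1 did not exceed 0.383 CPM in any F3 library.

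Ugt2b35 had the smallest p of the F3 members. It had 0.422, 0.802 and 0.349 CPM in F3 chlordecone libraries, against 0.0529, 0.0424 and 0.0166 CPM in the controls, or 47, 69 and 37 reads against 5, 3 and 2. All chlordecone libraries were above all controls, at a level far below that of the Gst genes, and the log2 fold change of 3.81 (SE 0.59) had an edgeR adjusted p of 0.1271. Ugt2b35 passed the filter on low counts through the chlordecone group only, so its separation is partly set by that filter. All 5 Ugt members tested in F3 had a positive log2 fold change, with a median of 0.54, where 48.8% of all genes tested had a positive one. All but Ugt2b35 are Ugt1a genes, which overlap on the same strand and share 52.1% to 79.8% of their words with other genes. Their counts are therefore not separate, and the log2 fold change of Ugt1a7c was 0.02. The most abundant, Ugt1a6b, had 1.10, 1.07 and 1.47 CPM in chlordecone libraries, against 1, 1.03 and 0.49 CPM. Ugt1a7c had 0.431, 0.453 and 0.943 CPM, against 0.233, 0.905 and 0.672 CPM in the controls. The F3 urothelial markers summed to 201, 187 and 223 CPM in chlordecone libraries, against 114, 158 and 150 CPM in the controls, and their part in the Ugt levels was not tested.

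Ahr in F3 had 22.3, 20.7 and 19.3 CPM in chlordecone libraries, against 16.2, 11.4 and 18.0 CPM in the controls, without overlap, and its log2 fold change was 0.45 (SE 0.18; edgeR adjusted p 0.4575). Ephx1 had 67.5, 65.0 and 66.3 CPM, against 77.4, 106 and 83.3 CPM in the controls, also without overlap and in the direction opposite to F1. Nr1i3 was at the edge of detection with 9, 15 and 16 reads in chlordecone libraries, against 3, 42 and 54 in the controls. Por, Nqo1 and Sult1e1 overlapped, at 69.8 to 85.8, 1.30 to 2.11 and 5.69 to 8.26 CPM in chlordecone libraries, against 69.6 to 83.9, 1.28 to 2.79 and 4.97 to 13.2 CPM in the controls.

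An interaction term, fitted over the 11 libraries together, compared the chlordecone difference of F1 with that of F3. The generations also differed in table, depth and seminal vesicle transcripts, which this term cannot tell apart from generation. Of 59 members tested, 2 passed an edgeR adjusted p of 0.05 (0.718% of 16980 genes did), and both were Gst genes. DESeq2 called 14 members (6.93% of all genes) and the fit with a replicate block 1, Gstm5 (0.289%). For Gstm5 the log2 fold change was 2.39 in F1 and -0.23 in F3, a difference of 2.62 (SE 0.52; edgeR adjusted p 0.04209). The F3 levels behind it were 4.82, 7.97 and 6.07 CPM in chlordecone libraries, against 6.59, 9.38 and 6.91 CPM in the controls. For Gsta3 the log2 fold change was 2.64 in F1 and -0.02 in F3, a difference of 2.66 (SE 0.55; edgeR adjusted p 0.04744), with F3 levels of 5.46, 6.67 and 5.58 CPM in chlordecone libraries, against 4.25, 7.24 and 7.18 CPM in the controls. Both calls are close to the threshold. Leaving out 1 library at a time gave edgeR adjusted p-values of 0.0043 to 0.136 for Gstm5 and of 0.00163 to 0.145 for Gsta3, with a log2 difference of at least 2.03 throughout. Gstm5 passed in 3 of these 11 fits, those without an F1 chlordecone library, and Gsta3 in 2, those without F1 chlordecone 2 or F3 control 1.

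The next members by interaction p were Gsta4 with a log2 difference of 3.02 (SE 0.67; edgeR adjusted p 0.05623), Cyp2f2 with -5.55 (SE 1.33; 0.06463), Gstm1 with 2.70 (SE 0.65; 0.06474) and Gstm7 with 2.98 (SE 0.75; 0.07446). Cyp2f2 was lower without overlap in F1 and higher without overlap in F3, and Gsta4 was higher without overlap in F1 and lower without overlap in F3. Gstm7 in F3 had 4.91, 3.96 and 3.57 CPM in chlordecone libraries, against 3.64, 4.67 and 3.05 CPM in the controls. Without F1 chlordecone 2 the interaction was called for 18 members (13.8% of all genes), 14 of them with the higher difference in F1. With chlordecone 2 as the only F1 chlordecone library it was called for 4 members (2.18% of all genes), Gstm5, Gstm1, Gsta4 and Ugt2b35. There the spread of the lone library is borrowed from the other groups, and Ugt2b35 had no read in it.

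**Figure D5:**
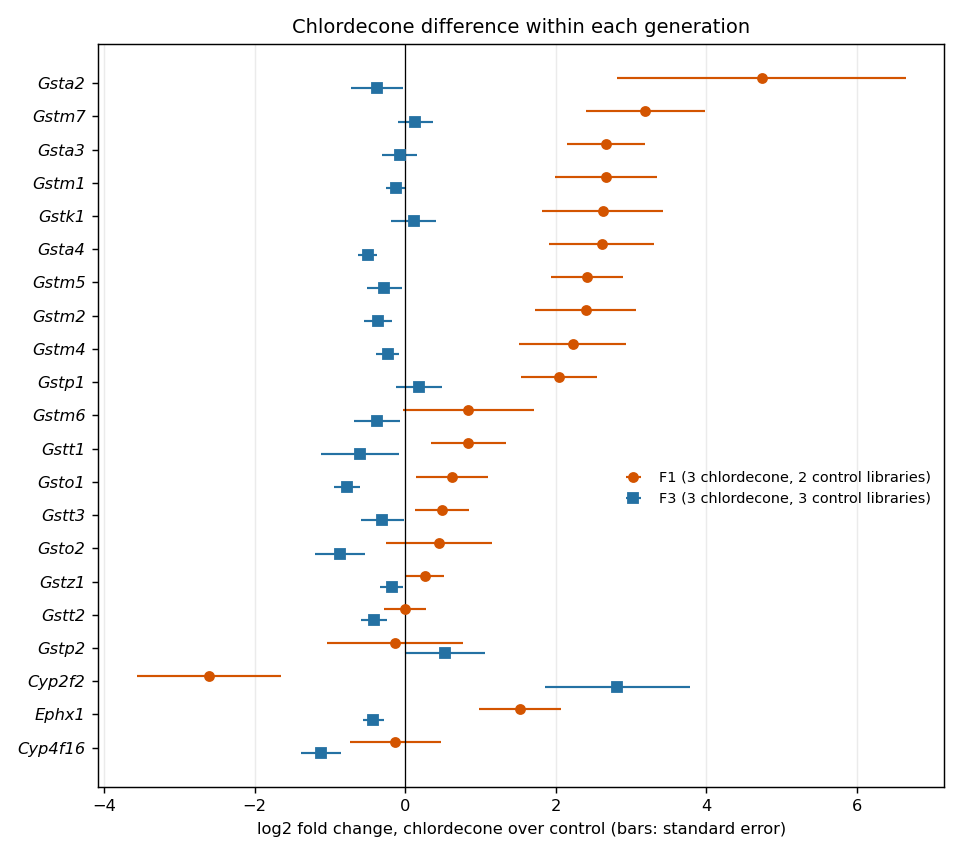
Log2 fold change of chlordecone over control, with its standard error, for the Gst genes tested in both generations and for Cyp2f2, Ephx1 and Cyp4f16, with F1 as orange circles above F3 as blue squares for each gene. The first 10 Gst genes lie above 2 in F1 and between -0.50 and 0.18 in F3, and Cyp2f2 has opposite signs in the generations.

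The levels themselves, given per length as RPKM over union exon length, ranked the same enzyme first in each of the 4 groups, although after it the order differed between them. Gstm2 averaged 83.7 RPKM in F1 chlordecone and 15.9 RPKM in F1 control libraries, and 150 RPKM in F3 chlordecone and 194 RPKM in F3 control libraries. In F1 chlordecone libraries it was followed by Gstm1 (53.9), Gsta4 (50.7), Gstm5 (48.9) and Gstp1 (47 RPKM), and in F1 controls by Gstp1 (11.4), Por (10.3), Gstm5 (9.2) and Gstm1 (8.51 RPKM). In F3 chlordecone libraries it was followed by Gstm1 (86.8), Gstp1 (38.5), Ephx1 (34) and Gsta4 (30.2 RPKM), and in F3 controls by Gstm1 (94.6), Ephx1 (45.7), Gsta4 (42.8) and Gstp1 (34.1 RPKM). Gstm5 ranked 15 over all F3 libraries, at 4.92 RPKM in chlordecone and 5.97 RPKM in control libraries. Of 67 members with an F1 row, 16 averaged at least 10 CPM and 19 less than 1 CPM, and of 62 with an F3 row, 16 and 29 did. The tables were made separately, so levels across them are set side by side and not tested.

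Genes that work beside these enzymes were counted from 7 lists, some of which also hold members. The edgeR test called 0 of their genes in each generation. In F1, hydrolases and oxidoreductases had 18 of 20 tested genes with a positive log2 fold change, a median of 1.16 and 8 genes higher at an unadjusted p under 0.05 (90% positive and 40% at that p, against 51.4% and 7.93% of all genes tested). The NRF2 and glutathione synthesis list had 13 of 17, a median of 0.71 and 3 such genes (17.6%). The AHR pathway had 6 of 11, a median of 0.04 and 2 such genes (18.2%). The drug efflux list had 4 of 10 positive, a median of -0.09 and 2 such genes (20%). In F3 the list medians lay between -0.19 and 0.04. Ces1d, a carboxylesterase abundant in liver and fat, had 100.0, 30.8 and 232 CPM in F1 chlordecone 1, 2 and 3, against 2.36 and 2.25 CPM in the controls (edgeR adjusted p 0.1142). Gpx3, the secreted glutathione peroxidase, had 173, 78.5 and 131 CPM, against 24.5 and 25.2 CPM (edgeR adjusted p 0.1272). Both were lowest of the chlordecone group in chlordecone 2, as most Gst genes were. Cyb5r3, which feeds electrons to P450 enzymes through cytochrome b5, had 70.0, 44.8 and 47.7 CPM, against 17.5 and 21.2 CPM. The sulfotransferase Sult5a1 was even across the chlordecone group, at 21.2, 21.4 and 21.1 CPM, against 5.97 and 1.73 CPM in the controls. Slc7a11, the cystine carrier for glutathione synthesis, had the smallest p of these lists in F3, at 6.86, 9.85 and 8.48 CPM in chlordecone libraries, against 4.73, 4.88 and 3.88 CPM in the controls (edgeR adjusted p 0.3099).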

How the data were processed

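Poly-A RNA of mouse prostate was sequenced from stranded libraries in 12 labelled samples, of which 11 libraries were analysed. K in a column header was taken for chlordecone (kepone) and C for control. Each generation had its own deposited table, with the authors' unnormalised counts of reads by gene. The submitters' processing notes name HTSeq 0.6.1, TopHat2 2.0.14 on Bowtie2 2.1.0, DESeq2 1.6.3 and bcl2fastq 2.17.1.14, and mm10. Which annotation release was counted, and with which strand option, is not given in the sources used here. There were 19091 genes for F1 and 26023 for F3. All sample columns had a label (0 left over).

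Counts were tested with edgeR 4.0.16 (R 4.3.3): filterByExpr (minimum count 10, total 15), TMM, quasi-likelihood F test, two-sided, within each generation, and Benjamini-Hochberg adjustment over all genes at 0.05. The interaction used the genes in both tables. Filters, scaling, DESeq2 1.42.0, 1 fit of all libraries, a replicate block and leaving out each library were alternatives, and fitting chlordecone 2 alone was added after seeing the data. The code recovered known changes of well-counted genes in counts simulated with a fixed spread. This checked the code and not the power at the spread of these libraries. CPM used TMM-scaled library sizes, and RPKM the exon lengths of GENCODE M21. A floor was 3 counts per library and covers counting error only. Cyp2c44 of the F3 table was joined to Cyp2c23 of F1 by Ensembl identifier.

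The members and gene lists were chosen with earlier results of these data known. Named members were, by rule, those called, the 6 higher and 6 lower with the smallest p per generation at a mean of at least 1 CPM, the 3 most abundant per length of the P450, Gst and Ugt genes, the sensors, and the 6 with the smallest interaction p. From each list up to 3 genes with the smallest p could be named.

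Of the 70 members, 35 share at least 10% of their 50-base words with other genes or overlap another gene, so their counts are uncertain.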

Additional observations from a re-analysis of the deposited data

Results flagged for a closer look

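The chlordecone difference of 2 members differed between the generations in the interaction test. For Gstm5 the log2 fold change in F1 exceeded that in F3 by 2.62 (SE 0.52; edgeR adjusted p 0.04209), and the F1 chlordecone libraries were above the controls in 3 of 3. For Gsta3 it exceeded it by 2.66 (SE 0.55; edgeR adjusted p 0.04744), again with 3 of 3 F1 chlordecone libraries above both controls. In F3 both genes overlapped between the groups. Generation cannot be told apart here from the separate tables, the depth or the tissue content of the libraries.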

How the results depend on the processing

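The F1 count of 0 called members was 1 with no filter (Cyp4a12a), 13 with DESeq2, 12 in 1 fit of all libraries, 10 with the replicate block and 3 with chlordecone 2 alone, with 0.11%, 3.99%, 5.48%, 1.81% and 6.57% of all genes called. It ranged from 0 to 19 with 1 library left out, 19 being the value without chlordecone 2. The F1 median of 0.49 was 0.60 at a mean of at least 1 CPM, 0.58 in 1 fit of all libraries and 0.45 to 0.71 with 1 library left out. The F3 count of 0 was 1 with no filter (Ugt2b35) and 4 with DESeq2, and 0 with any 1 library left out. The F3 median of -0.08 was -0.15 at a mean of at least 1 CPM, -0.02 in 1 fit and -0.12 to 0.09 with 1 library left out. The interaction count of 2 was 14 with DESeq2, 1 with the replicate block (Gstm5; Gsta3 had an adjusted p of 0.0702), 4 with chlordecone 2 alone (a group of 1 library, whose spread is taken from the others) and 0 to 18 with 1 library left out. The causes were not tested. Same-numbered libraries correlated in their deviations by 0.0483 and 0.0583 in F1 and by 0.131, 0.00179 and 0.00191 in F3, so the numbers were not taken to pair samples. In the replicate-block fits F1 chlordecone 3 had no control of its number and did not enter the F1 difference.

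The log2 fold changes of some members turned sign, among them Cyp4f37, which was -0.83 with all F1 libraries and was called lower, at -2.42, without chlordecone 2. With chlordecone 2 alone the F1 log2 fold change was 0.40 for Cyp4f37, 0.32 for Gstt4, 0.59 for Cyp4f39, -0.79 for Cyp2j6, 0.47 for Ugt1a2, -0.01 for Ahr, -0.14 for Cyp1b1, 0.41 for Ahrr, -0.82 for Nqo1 and -0.50 for Por. With the replicate block it was -0.03 for Cyp2j6, -0.02 for Ahr and 0.03 for Cyp4f16, and for Cyp2j9 in F3 it was 0.0022 with no filter and 0.03 in 1 fit. With 1 library left out the log2 fold changes that turned had ranges in F1 of Cyp4f39 -1.25 to 0.06, Cyp2j9 -0.50 to 0.01, Ahr -0.10 to 0.21, Cyp4f17 -0.08 to 0.34, Cyp1b1 -0.12 to 0.25, Cyp4f16 -0.63 to 0.11, Gsto2 -0.23 to 1.04, Gstt2 -0.19 to 0.22, Ahrr -1.10 to 0.05, Nqo1 -0.50 to 0.63 and Por -0.23 to 0.31, and in F3 of Gsta3 -0.29 to 0.04, Cyp2e1 -0.76 to 1.56, Gstm7 -0.0044 to 0.30, Cyp2j9 -0.14 to 0.10, Cyp2j6 -0.13 to 0.01, Ugt1a7c -0.44 to 0.41, Nqo1 -0.47 to 0.08, Por -0.02 to 0.14 and Sult1e1 -0.63 to 0.02. The F1 libraries were shallower than the F3 libraries, so members under 1 CPM rest on few reads.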
